A study of Mus with 21 samples.

Results

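The genes described here encode subunits of the NMDA receptor: Grin1, Grin2a, Grin2b, Grin2c, Grin2d and Grin3a. They were taken by gene name, and are 6 of the 55335 genes in the deposited table of read counts. All 6 passed the filter on low counts. The RNA came from whole brains of female C57BL/6J mouse embryos at E17.5, 1 library per embryo, with 5 WT, 3 Nipbl+/-, 7 WaplΔ/+ and 6 double heterozygote libraries. The study asked whether lowering Wapl, which releases cohesin from chromatin, changes the transcriptome of Nipbl+/- brains, in which the factor that loads cohesin is reduced.

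WT embryos were Wapl +/+ and Nipbl +/+. Nipbl+/- embryos (Nipbl +/delta in the labels) carried a null Nipbl allele made in the germ line of the sire, where the Stra8-icre transgene recombined a floxed allele before meiosis. WaplΔ/+ embryos (Wapl delta in the labels) carried a germ line deletion of the Wapl promoter and first exons, made with E2a-Cre in earlier generations. Double heterozygotes carried both alleles. The embryos came from a pair of crosses, and the cross of each embryo is not given in the sources used here. Both alleles came through the germ line and were not restricted to the brain.

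NMDA receptors are glutamate-gated calcium channels assembled from obligatory GluN1 subunits, encoded by Grin1, and a variable set of GluN2 or GluN3 subunits. The GluN2 subunits bind glutamate and set the channel's kinetics, whereas GluN1 and GluN3 subunits bind glycine. In rodent forebrain Grin2b and Grin2d are embryonic subunit genes, Grin3a is prominent in early life, and Grin2a and Grin2c rise mainly after birth, Grin2c largely in the cerebellum. Replacement of GluN2B by GluN2A is a widely used sign of synapse maturation.

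Total counts on genes ranged from 25682566 to 35818767 per library. Nipbl stood at 54.3% ± 4.52 of the WT level in Nipbl+/- brains (SD, n = 3) and at 54.8% ± 1.79 in double heterozygotes (SD, n = 6), and Wapl at 46.7% ± 4.51 in WaplΔ/+ brains (SD, n = 7) and at 49.3% ± 1.90 in double heterozygotes, with no overlap with WT. Counts of mt-Nd3, a mitochondrial gene of respiratory complex I, were between 52 and 106 in 9 libraries and between 0 and 6 in the other 12. The set with low counts held 3 WT, 2 WaplΔ/+, 4 double heterozygote and all 3 Nipbl+/- libraries. In 13 of 13 Wapl carriers the set matched whether the genotype label has the deletion as its first or second allele, so set and written order cannot be told apart there. All 10 neuron markers checked were detected in every group.

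Grin2b, Grin3a and Grin2a were the subunit genes that fell below WT, and Grin1, Grin2d and Grin2c did not pass the test in any comparison. Calls were made by the quasi-likelihood test of edgeR, at an adjusted P (Benjamini-Hochberg, over all 30552 genes tested) below 0.10. In Nipbl+/- brains 3 of 6 subunit genes were called, all lower, where 11.2% of all genes tested were called and 6.96% were called lower. In WaplΔ/+ brains 1 of 6 was called, lower, against 2.22% of all genes called and 1.45% called lower. In double heterozygotes 2 of 6 were called, both lower, against 3.28% of all genes called and 2.46% called lower. The 3 comparisons share the same 5 WT libraries. How many of all genes tested also part from WT without overlap was not counted, so such separation is given below as a description. In bulk tissue, fewer cells that express a gene and less of its RNA per cell cannot be told apart. Values below are normalized counts, that is, counts scaled by TMM to a mean effective library size.

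**Figure D1:**
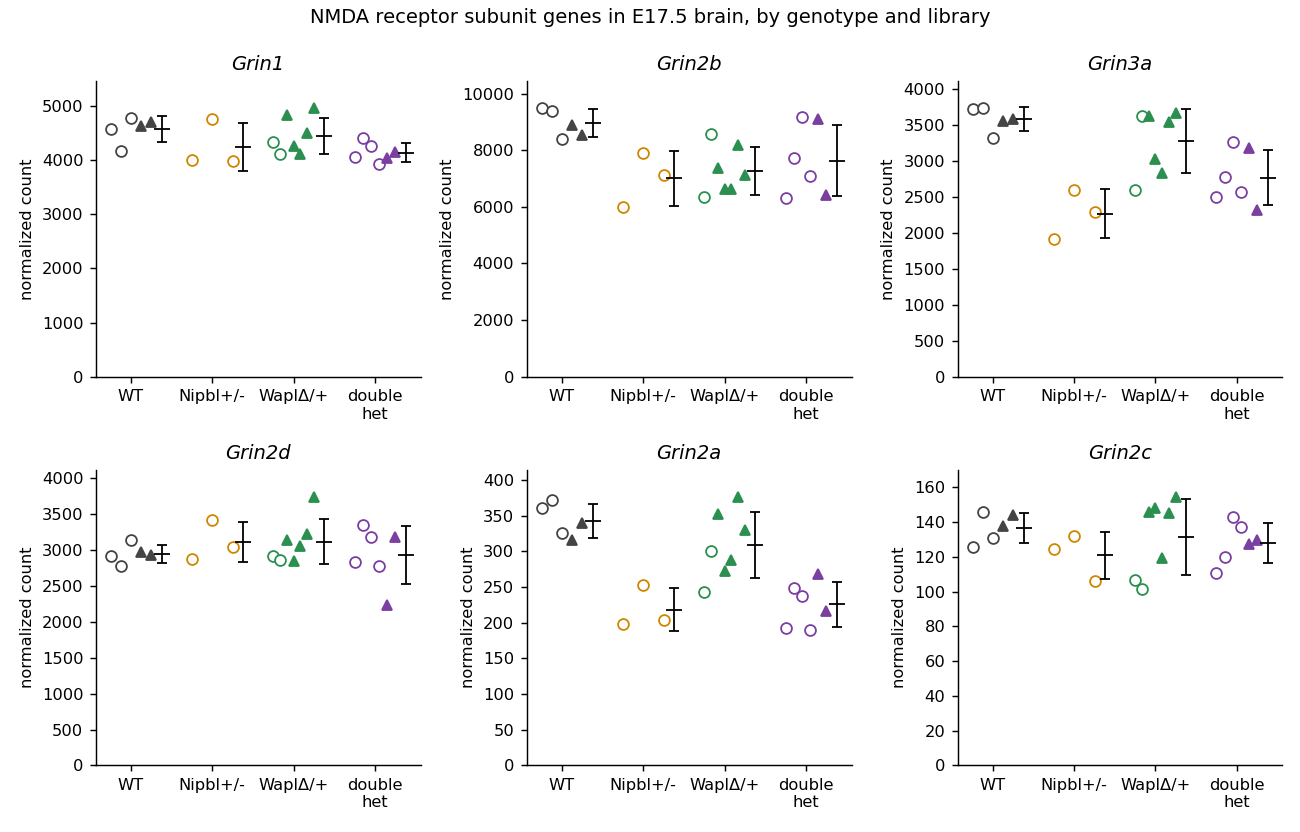
Normalized count (vertical axes, from 0) of the 6 subunit genes in each library of the 4 genotypes (horizontal axes), with open circles for libraries with low mt-Nd3 counts, filled triangles for those with high counts, and bars for the mean and SD of the group. Nipbl+/- libraries lie below every WT library for Grin2b, Grin3a and Grin2a, and double heterozygotes do so for Grin3a and Grin2a.

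Grin1 encodes the subunit that every NMDA receptor contains. It lies on chromosome 2 of GRCm38 from 25291177 to 25319187. Its normalized counts were 4579, 4172, 4777, 4630 and 4704 in WT libraries and 3995, 4759 and 3978 in Nipbl+/- libraries. In WaplΔ/+ libraries they ran from 4109 to 4965 with a median of 4330, and in double heterozygotes from 3922 to 4417 with a median of 4100. All 3 mutant groups overlapped WT, although 4 of 6 double heterozygotes lay below the lowest WT library. The log2 fold change was -0.11 in Nipbl+/- brains (standard error, SE, 0.0561, edgeR adjusted P = 0.276), -0.04 in WaplΔ/+ brains (SE 0.0468, adjusted P = 0.765) and -0.13 in double heterozygotes (SE 0.0417, adjusted P = 0.118). The gene became a call in Nipbl+/- brains when replicate 2 was left out (-0.21, edgeR adjusted P = 0.00596), so 1 library decided that value. In double heterozygotes it became a call with DESeq2, with no filter on low counts, among carriers whose label writes the Wapl deletion first, and without WT replicate 2 or double heterozygote replicate 2, 3 or 5 (edgeR adjusted P between 0.0546 and 0.0739 for those 4 libraries).

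The Grin1 value holds a further limit. The antisense lncRNA Grin1os overlaps Grin1 on chromosome 2 from 25291258 to 25298660, and the strand setting of the counting is not given in the sources used here, so reads of the pair cannot be told apart. Grin1os counts were between 45.1% and 48.7% of Grin1 counts in every library.

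Grin2b encodes GluN2B, the main GluN2 subunit of the embryonic forebrain. The gene lies on chromosome 6 from 135713221 to 136173615. WT libraries held 9494, 9395, 8402, 8907 and 8541 normalized counts, and Nipbl+/- libraries held 5981, 7894 and 7129. All 3 Nipbl+/- libraries were below the lowest WT library. Their mean was 78.2% ± 10.8 of the WT mean (SD, n = 3), a log2 fold change of -0.36 (SE 0.0659, edgeR adjusted P = 0.00230). The fall was of like size among libraries with low mt-Nd3 alone (-0.38, edgeR adjusted P = 0.0184), and no alternative ended the call, the adjusted P reaching 0.0986 with all 4 groups in one fit.

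In WaplΔ/+ brains Grin2b ranged from 6332 to 8565 normalized counts with a median of 7111. Of the 7 libraries 6 were below every WT library and replicate 2, at 8565, was within the WT range. The log2 fold change was -0.30 (SE 0.0596, edgeR adjusted P = 0.0381). Grin2b was the subunit gene with a call in this group. The call was lost without WT replicate 1 (-0.28, edgeR adjusted P = 0.123), without WT replicate 2 (-0.28, adjusted P = 0.136), with all 4 groups in one fit (-0.28, adjusted P = 0.183), among libraries with low mt-Nd3 (-0.29, adjusted P = 0.301) and among carriers whose label writes the deletion first (-0.27, adjusted P = 0.101), while the fold change hardly moved. Among libraries with high mt-Nd3 it was -0.28 (edgeR adjusted P = 0.0810).

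Double heterozygotes spread widely for Grin2b. Their lowest, median and highest normalized counts were 6326, 7404 and 9162. Replicates 3 and 5, at 9162 and 9113, were within the WT range and the other 4 were below it. The log2 fold change of -0.22 was not a call (SE 0.0846, edgeR adjusted P = 0.241). It became one without replicate 3 (-0.28, edgeR adjusted P = 0.0541), without replicate 5 (-0.28, adjusted P = 0.0284) and among carriers whose label writes the deletion first (-0.24, adjusted P = 0.0598).

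Grin3a encodes GluN3A, a glycine-binding subunit that lowers calcium entry and is known for slowing synapse maturation. The gene lies on chromosome 4 from 49661611 to 49846023. Its normalized counts were 3720, 3738, 3317, 3552 and 3580 in WT libraries and 1920, 2599 and 2287 in Nipbl+/- libraries. The groups did not overlap. The Nipbl+/- mean was 63.3% ± 9.50 of the WT mean (SD, n = 3), a log2 fold change of -0.66 (SE 0.0688, edgeR adjusted P = 3.82e-05). Among libraries with low mt-Nd3 the value was -0.67 (edgeR adjusted P = 0.00160).

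In double heterozygotes Grin3a ranged from 2324 to 3262 normalized counts with a median of 2674, and all 6 libraries lay below every WT library. Replicates 3 and 5 were again the highest, at 3262 and 3184. The log2 fold change was -0.36 (SE 0.0723, edgeR adjusted P = 0.0129), and -0.36 among libraries with low mt-Nd3 (adjusted P = 0.0159). Among those with high mt-Nd3, with 2 libraries in each group, it was -0.35 and no call (edgeR adjusted P = 0.814). WaplΔ/+ libraries ran from 2592 to 3669 with a median of 3546, and 4 of 7 were within the WT range. Their log2 fold change of -0.13 was not a call (SE 0.0700, edgeR adjusted P = 0.401).

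Grin2d encodes GluN2D, an embryonic subunit found in interneurons, thalamus and brainstem, which gives channels slow to close. The gene lies on chromosome 7 from 45831883 to 45871194. WT libraries held 2912, 2780, 3143, 2968 and 2928 normalized counts, and Nipbl+/- libraries 2880, 3425 and 3050. WaplΔ/+ libraries ranged from 2852 to 3746 with a median of 3061, and double heterozygotes from 2237 to 3347 with a median of 3007. Each mutant group overlapped WT. Double heterozygote replicate 5, with its WT-like Grin2b, had the lowest Grin2d count of the 21 libraries. The log2 fold changes were 0.08 in Nipbl+/- brains (95% interval -0.03 to 0.18, edgeR adjusted P = 0.465), 0.08 in WaplΔ/+ brains (-0.03 to 0.20, adjusted P = 0.490) and -0.0013 in double heterozygotes (-0.15 to 0.15, adjusted P = 0.996). The sign in WaplΔ/+ and double heterozygote brains turned under some of the alternatives given with the limits.

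Grin2a encodes GluN2A, the GluN2 subunit of mature forebrain synapses. The gene lies on chromosome 16 from 9567901 to 9996083. At this age WT libraries held 360, 372, 326, 315 and 340 normalized counts. Nipbl+/- libraries held 198, 253 and 203, all below the lowest WT library. The mean was 63.6% ± 8.81 of the WT mean (SD, n = 3), a log2 fold change of -0.66 (SE 0.0912, edgeR adjusted P = 0.000276). It was -0.70 among libraries with low mt-Nd3 (adjusted P = 0.00336).

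Double heterozygotes ranged from 190 to 268 normalized counts of Grin2a with a median of 227, and all 6 lay below every WT library, replicates 3 and 5 included. The mean was 65.8% ± 9.15 of the WT mean (SD, n = 6), a log2 fold change of -0.59 (SE 0.0853, edgeR adjusted P = 0.00110). It was -0.69 among libraries with low mt-Nd3 (edgeR adjusted P = 0.00209) and -0.41 and no call among those with high mt-Nd3 (adjusted P = 0.814). WaplΔ/+ libraries ran from 243 to 377 with a median of 301, on both sides of the lowest WT value. Their log2 fold change was -0.14 (SE 0.0857, edgeR adjusted P = 0.442). The pair of carriers whose label writes the deletion first gave -0.33 and a call (adjusted P = 0.0924), and the other 5 gave -0.07 (adjusted P = 0.737).

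Grin2c encodes GluN2C, which is known mainly from cerebellar granule cells and astrocytes after birth. The gene lies on chromosome 11 from 115249169 to 115267297. It had few reads, with 126, 146, 131, 138 and 144 normalized counts in WT libraries and 124, 132 and 106 in Nipbl+/- libraries. WaplΔ/+ libraries ran from 102 to 155 with a median of 145, and double heterozygotes from 111 to 143 with a median of 128. The groups overlapped in every comparison with WT. The log2 fold changes were -0.18 in Nipbl+/- brains (95% interval -0.41 to 0.05, edgeR adjusted P = 0.394), -0.05 in WaplΔ/+ brains (-0.27 to 0.17, adjusted P = 0.876) and -0.09 in double heterozygotes (-0.27 to 0.10, adjusted P = 0.744). The value in WaplΔ/+ brains changed sign in some alternatives.

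The remaining subunit gene, Grin3b, encodes a GluN3 subunit known from motor neurons and is no member of the set described. It lies on chromosome 10 from 79970397 to 79977190 and had 93.2 to 113 normalized counts in WT libraries. Its log2 fold change was 0.24 in Nipbl+/- brains (SE 0.117, edgeR adjusted P = 0.256), 0.15 in WaplΔ/+ brains (adjusted P = 0.570) and 0.02 in double heterozygotes (adjusted P = 0.966).

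**Figure D2:**
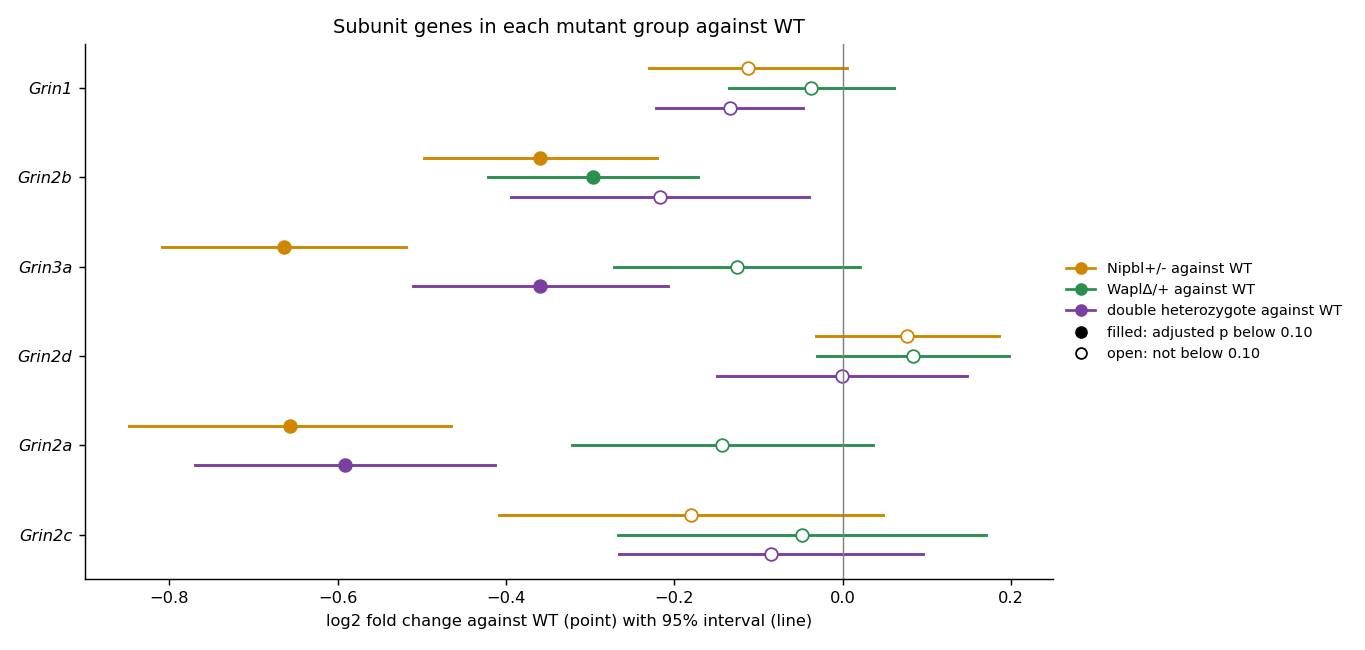
Log2 fold change against WT (horizontal axis) of the 6 subunit genes (rows) in Nipbl+/- (orange), WaplΔ/+ (green) and double heterozygote (purple) brains, as points with lines for the 95% interval and filled points for an adjusted P below 0.10. Grin3a and Grin2a stand at -0.66 in Nipbl+/- brains, and Grin2d lies between -0.0013 and 0.08 in all 3 groups.

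The mutant groups were next compared with each other. Between double heterozygotes and Nipbl+/- brains, where 0.00655% of genes were called, 0 of 6 subunit genes were called by edgeR and 0 by DESeq2, and 1 had an unadjusted P below 0.05. That gene was Grin3a, which was higher in double heterozygotes by 0.29 on the log2 scale (95% interval 0.06 to 0.52, edgeR unadjusted P = 0.0159, adjusted P = 0.971). The difference was 0.13 for Grin2b (-0.12 to 0.38) and 0.05 for Grin2a (-0.21 to 0.31), and that of Grin2a turned sign in some alternatives.

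Between double heterozygotes and WaplΔ/+ brains, where 1.02% of genes were called, 1 of 6 subunit genes was called. Grin2a was lower in double heterozygotes by a log2 fold change of -0.45 (95% interval -0.66 to -0.24, edgeR adjusted P = 0.0454), and 4 of 6 libraries lay below every WaplΔ/+ library. The call was lost without WaplΔ/+ replicate 3 or 6 or double heterozygote replicate 1 or 4, with edgeR adjusted P between 0.107 and 0.127, and within either mt-Nd3 set.

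Between Nipbl+/- and WaplΔ/+ brains, where 1.16% of genes were called, 2 of 6 subunit genes were called. Grin3a was lower in Nipbl+/- brains by a log2 fold change of -0.53 (SE 0.107, edgeR adjusted P = 0.0308) and Grin2a by -0.50 (SE 0.124, adjusted P = 0.0838). Neither was a call among libraries with low mt-Nd3, with the set as a term in the fit, or without Nipbl+/- replicate 1 or 3, with edgeR adjusted P of 0.203 and 0.204 for Grin3a and 0.336 and 0.465 for Grin2a in the last 2. Over all 21 alternatives the log2 fold change of Grin3a stayed between -0.64 and -0.42, and that of Grin2a between -0.63 and -0.32. Grin2a also lost its call without WaplΔ/+ replicate 3, 6 or 7. For Grin2b the log2 fold change between these groups was -0.05 (95% interval -0.24 to 0.14, edgeR adjusted P = 0.904).

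The interaction of the genotypes asks whether double heterozygotes differ from the sum of the single effects. With edgeR, 0% of the 30552 genes were called and 4221 had an unadjusted P below 0.05. Of the subunit genes 0 were called and 2 had an unadjusted P below 0.05. Grin2b stood 0.40 above the sum on the log2 scale (95% interval 0.12 to 0.68, edgeR unadjusted P = 0.00648, adjusted P = 0.205) and Grin3a 0.39 above it (0.11 to 0.67, unadjusted P = 0.00777, adjusted P = 0.210). DESeq2 called both, with adjusted P = 0.0783 for Grin2b and 0.0828 for Grin3a, among 793 of 30545 genes called. So did edgeR without double heterozygote replicate 6 (adjusted P = 0.0914 and 0.0969), among 945 of 30552 genes called. The value was 0.17 for Grin2a (95% interval -0.14 to 0.49, edgeR adjusted P = 0.683).

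The ratio of late Grin2a to early Grin2b reads was taken within each library, where it does not depend on scaling between libraries. No test was made on it, and it is a ratio of reads and not of molecules. In WT libraries there were between 25.1 and 28.2 Grin2b reads for each Grin2a read. The ratio was 30.2, 31.2 and 35.0 in Nipbl+/- libraries and between 29.5 and 38.6 in double heterozygotes, so that every library of both groups was above every WT library. WaplΔ/+ libraries ran from 21.0 to 28.5. On the log2 scale, Grin2a over Grin2b was -4.71 ± 0.0689 in WT (SD, n = 5), -5.00 ± 0.112 in Nipbl+/- (SD, n = 3), -4.56 ± 0.162 in WaplΔ/+ (SD, n = 7) and -5.08 ± 0.150 in double heterozygote brains (SD, n = 6). Within WaplΔ/+ brains the 5 libraries with high mt-Nd3 had the highest values. The part of the mt-Nd3 sets in this was not tested.

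Among the early subunits themselves, Grin3a over Grin2b was -1.32 ± 0.0383 on the log2 scale in WT (SD, n = 5) and -1.63 ± 0.0214 in Nipbl+/- brains (SD, n = 3), with no overlap. It was -1.15 ± 0.123 in WaplΔ/+ (SD, n = 7) and -1.46 ± 0.0607 in double heterozygote brains (SD, n = 6). Grin2d over Grin2b was -1.60 ± 0.134 in WT (SD, n = 5) and -1.16 ± 0.0933 in Nipbl+/- brains (SD, n = 3), with every Nipbl+/- library above every WT library. It was -1.22 ± 0.206 in WaplΔ/+ brains (SD, n = 7). In double heterozygotes it was -1.38 ± 0.362 (SD, n = 6), from -2.03 in replicate 5, below every WT library, to -1.01 in replicate 6. Calls were found in both developmental classes: in Nipbl+/- brains 2 of 3 early subunit genes, Grin2b and Grin3a, and 1 of 2 late ones, Grin2a, were lower.

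**Figure D3:**
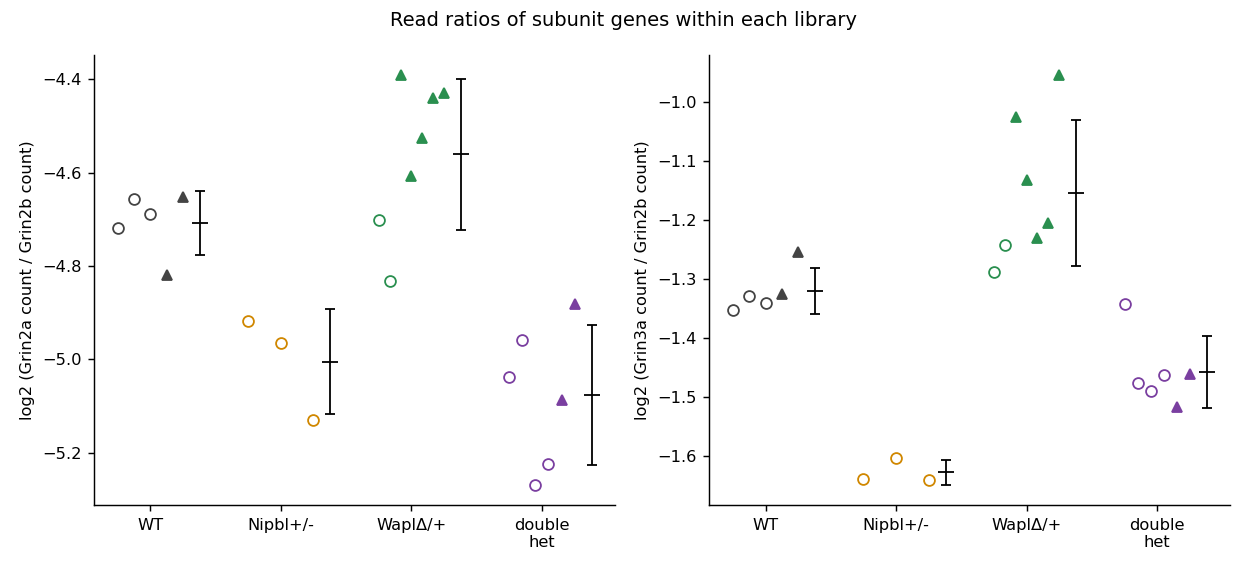
Log2 ratio of Grin2a to Grin2b counts (left) and of Grin3a to Grin2b counts (right) in each library of the 4 genotypes, with open circles for low and filled triangles for high mt-Nd3 and bars for mean and SD. The Grin2a ratio is below every WT library in all Nipbl+/- and double heterozygote libraries, and the vertical axes do not start at 0 because they show logarithms.

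The subunit genes that fell are also the long ones. Grin2b spans 460 kb of the genome, Grin2a 428 kb and Grin3a 184 kb, and all 3 belong to the longest decile of the 12757 protein-coding genes whose mean normalized count was 100 or more. Grin2d spans 39.3 kb, Grin1 28.0 kb and Grin2c 18.1 kb. In Nipbl+/- brains the longest decile had a median log2 fold change of -0.13 and 44.0% of its genes were called lower, against a median of -0.0041 and 13.1% over all deciles. In WaplΔ/+ brains it had a median of -0.06 with 9.48% called lower, against 0.013 and 2.23% over all. In double heterozygotes these were -0.08 and 20.1%, against 0.0088 and 4.99%. Within the longest decile, 1.18% of genes had a lower fold change than Grin3a in Nipbl+/- brains, 1.41% a lower one than Grin2a and 13.2% a lower one than Grin2b. In WaplΔ/+ brains 4.23% had a lower value than Grin2b, and in double heterozygotes 0.235% had a lower value than Grin2a and 3.13% than Grin3a. What gene span contributes to the fall of each subunit gene was not tested.

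**Figure D4:**
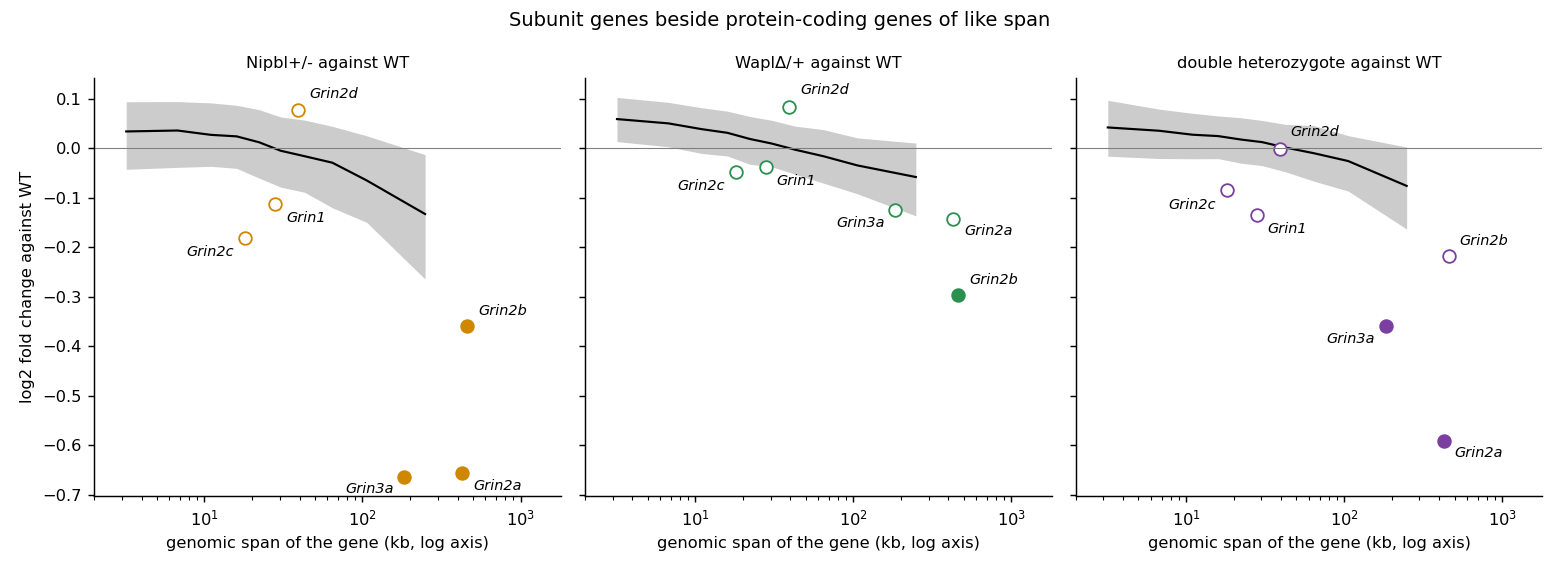
Log2 fold change against WT (vertical axis) of the 6 subunit genes against the genomic span of the gene (horizontal log axis, kb) in the 3 mutant groups, filled where the adjusted P was below 0.10. The black line joins the medians of the span deciles of 12757 protein-coding genes and the grey band their middle 50%, and Grin2a, Grin2b and Grin3a lie at the long end, with Grin2a at -0.59 in double heterozygotes.

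Across the 21 libraries the levels of the 3 long subunit genes went together. As a description, Pearson's r of log2 CPM was 0.89 between Grin2a and Grin3a, 0.75 between Grin2b and Grin3a and 0.62 between Grin2a and Grin2b. With deviations from the group means it was 0.80, 0.89 and 0.73. Grin2d did not follow them, with an r of -0.17 to Grin2b, 0.039 to Grin3a and 0.14 to Grin2a. The points share their library and its scaling, and the group differences enter the first set of values.

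Ranked among the 17297 genes whose mean reached 1 CPM, the genes most like Grin2b were Dock9 (r = 0.97), Prkcb (0.96), which encodes a protein kinase C, and Adcy1 (0.96), which encodes a calcium-stimulated adenylyl cyclase. Those most like Grin3a were the potassium channel gene Kcnk9 (0.98), Pdgfra (0.97), a growth factor receptor gene that marks oligodendrocyte precursors, and Nwd2 (0.97). For Grin2a they were the serotonin receptor gene Htr1a (0.95), Ccdc85a (0.94) and AI593442 (0.94). Grin1 was most like its overlapping partner Grin1os (0.96), the acetylcholinesterase gene Ache (0.92) and Ywhag (0.92). Grin2d was most like Ssh3 (0.94), Agap2 (0.93) and Iqsec2 (0.93), and Grin2c had lower values, with 0.82 for Cpne6, Pcbp3 and Cdhr1. These are descriptions over 21 libraries, and the group differences enter them. With deviations from the group means r was 0.82 for each of the 3 genes of Grin2a, 0.95 for Dock9 with Grin2b and 0.95 for Kcnk9 with Grin3a. Of the genes ranked, 0.214% had an r above 0.9 with Grin2a, 0.439% with Grin2b and 0.480% with Grin3a.

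Genes that work with the receptor were given by 7 lists with 65 genes, Grin3b included, all of which were tested. In Nipbl+/- brains 29 of 65 were called (44.6%), 26 of them lower and 3 higher, beside 11.2% of all genes called and 6.96% called lower. Their median log2 fold change was -0.11, against -0.0086 over all genes tested. In WaplΔ/+ brains 5 were called (7.69%), 4 lower and 1 higher, beside 2.22% of all genes called and 1.45% called lower. In double heterozygotes 11 were called (16.9%), 10 lower and 1 higher, beside 3.28% of all genes called and 2.46% called lower. The medians of these groups were -0.06 and -0.08, against -0.0034 and 0.00070 over all genes. In WaplΔ/+ brains the count fell to 1 without any 1 of WT replicates 1, 2, 4 and 5 and WaplΔ/+ replicates 4 and 5. In those fits between 9 and 264 of all genes were called. The count was 10 without WaplΔ/+ replicate 2 or 6, with 1534 and 914 genes called in all. In double heterozygotes it was 7 without WT replicate 1 or 4 (483 and 454 genes in all). It was 18 without double heterozygote replicate 3 (1687 in all) and 21 without replicate 5 (2504 in all). A narrower background is the 12757 protein-coding genes with a mean normalized count of 100 or more. Of these, 13.1% were called lower in Nipbl+/- brains, 2.23% in WaplΔ/+ and 4.99% in double heterozygotes. In their longest decile by span these shares were 44.0%, 9.48% and 20.1%. Called genes of the lists include long ones, such as Dlg2 (1973 kb), and shorter ones, such as Neto2 (64.2 kb). The part of span and expression level in these calls was not tested. The lists were chosen with earlier results known.

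**Figure D5:**
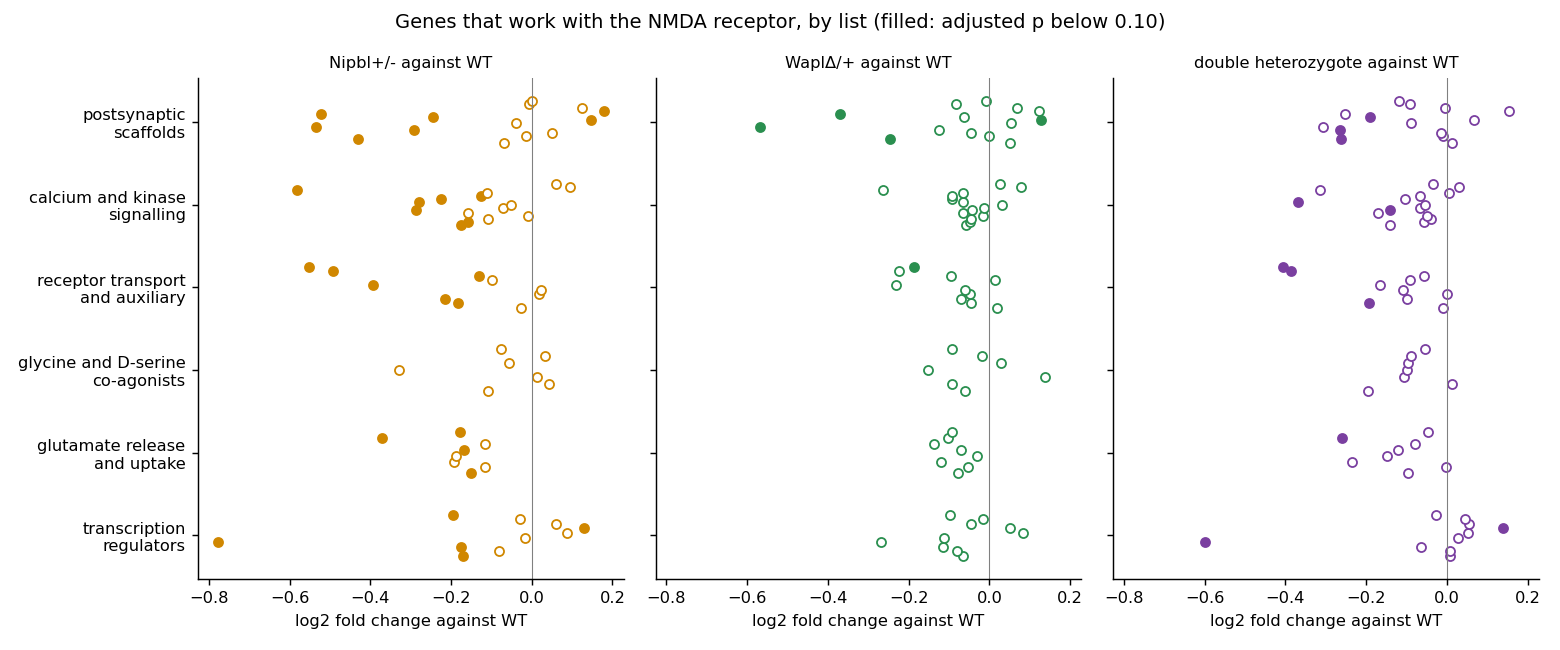
Log2 fold change against WT (horizontal axes) of each gene in 6 lists of genes that work with the NMDA receptor (rows) in the 3 mutant groups (panels), with filled points for an adjusted P below 0.10 and a vertical scatter that only parts the points. Nipbl+/- brains have 29 filled points, 26 of them on the lower side, and WaplΔ/+ brains have 5.

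Of 10 genes for receptor transport and auxiliary subunits, 6 were called lower in Nipbl+/- brains, 1 in WaplΔ/+ and 3 in double heterozygotes, and 0 were called higher. Neto2, a kainate receptor auxiliary subunit gene, fell from 4710 ± 231 normalized counts in WT (SD, n = 5) to 3227 ± 247 in Nipbl+/- brains (SD, n = 3), a log2 fold change of -0.55 (edgeR adjusted P = 8.44e-06). It fell by 0.41 on the log2 scale in double heterozygotes (adjusted P = 8.83e-05) and by 0.19 in WaplΔ/+ brains (adjusted P = 0.0601), the last lost in 10 of 24 alternatives. Neto1, whose protein binds NMDA and kainate receptors, fell by 0.49 in Nipbl+/- brains (edgeR adjusted P = 0.000453) and by 0.39 in double heterozygotes (adjusted P = 0.00395). In WaplΔ/+ brains its log2 fold change was -0.22 (adjusted P = 0.171).

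Of 14 postsynaptic scaffold genes, 5 were called lower and 2 higher in Nipbl+/- brains, 3 lower and 1 higher in WaplΔ/+ brains, and 3 lower in double heterozygotes. Homer2 fell by 0.52 on the log2 scale in Nipbl+/- brains (edgeR adjusted P = 0.000291) and by 0.37 in WaplΔ/+ brains (adjusted P = 0.0117). Dlgap2 fell by 0.53 in Nipbl+/- brains (adjusted P = 0.0291) and by 0.57 in WaplΔ/+ brains (adjusted P = 0.0574, lost in 11 of 24 alternatives). In double heterozygotes the log2 fold changes were -0.25 for Homer2 (edgeR adjusted P = 0.216) and -0.31 for Dlgap2 (adjusted P = 0.363), neither a call. Dlgap1 fell by 0.29 in Nipbl+/- brains (edgeR adjusted P = 0.00424) and by 0.26 in double heterozygotes (adjusted P = 0.00863). Dlg2, which encodes PSD-93, fell by 0.43 in Nipbl+/- brains (edgeR adjusted P = 0.000825), by 0.25 in WaplΔ/+ brains (adjusted P = 0.0863) and by 0.26 in double heterozygotes (adjusted P = 0.0635, lost in 11 of 23 alternatives). Homer3 rose by 0.18 in Nipbl+/- brains (adjusted P = 0.0201) and Dlgap4 by 0.15 (adjusted P = 0.0144), and Dlgap4 rose by 0.13 in WaplΔ/+ brains (adjusted P = 0.0591, lost in 12 of 24 alternatives). Homer1, outside the naming rule and chosen after its values were seen, was called lower in Nipbl+/- and double heterozygote brains.

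Of 15 genes for calcium and kinase signalling, 7 were called lower in Nipbl+/- brains, 2 in double heterozygotes and 0 in WaplΔ/+ brains. Rasgrf2, a calcium-responsive exchange factor for Ras, fell by 0.58 on the log2 scale in Nipbl+/- brains (edgeR adjusted P = 0.000644), and its log2 fold change was -0.31 in double heterozygotes (adjusted P = 0.101) and -0.26 in WaplΔ/+ brains (adjusted P = 0.171), neither a call. Camk2d fell by 0.29 in Nipbl+/- brains (adjusted P = 0.00223) and by 0.14 in double heterozygotes (adjusted P = 0.0978, lost in 14 of 23 alternatives). Nos1, the neuronal nitric oxide synthase gene, fell by 0.28 in Nipbl+/- brains (edgeR adjusted P = 0.00128) and by 0.37 in double heterozygotes (adjusted P = 0.00110).

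Of 8 genes for glutamate release and uptake, 4 were called lower in Nipbl+/- brains, 1 in double heterozygotes and 0 in WaplΔ/+ brains. Slc1a3, the glial glutamate transporter gene, fell by 0.37 on the log2 scale in Nipbl+/- brains (edgeR adjusted P = 0.000205) and by 0.26 in double heterozygotes (adjusted P = 0.0106). Slc1a6 fell by 0.18 in Nipbl+/- brains (adjusted P = 0.0705, lost in 10 of 17 alternatives). Of 7 genes for the co-agonists glycine and D-serine, 0 were called by edgeR in any of the 3 groups. Over all genes 11.2% were called in Nipbl+/-, 2.22% in WaplΔ/+ and 3.28% in double heterozygote brains, shares at which 7 genes give few calls.

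Of 10 transcription regulators of subunit genes, 4 were called lower and 1 higher in Nipbl+/- brains, 1 lower and 1 higher in double heterozygotes, and 0 in WaplΔ/+ brains. Mef2c, a neuronal activity-regulated factor, went from 6619 ± 629 normalized counts in WT (SD, n = 5) to 3871 ± 944 in Nipbl+/- brains (SD, n = 3), a log2 fold change of -0.78 (edgeR adjusted P = 0.000213), and fell by 0.60 in double heterozygotes (adjusted P = 0.00708). Sp1 fell by 0.20 in Nipbl+/- brains (adjusted P = 0.0804, lost in 7 of 17 alternatives). Nrf1 rose by 0.13 in Nipbl+/- brains (adjusted P = 0.0757) and by 0.14 in double heterozygotes (adjusted P = 0.0607), calls lost in 11 of 17 and 14 of 23 alternatives.

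Cell type markers were read in the same comparisons, in which 6.96%, 1.45% and 2.46% of all genes were called lower in Nipbl+/-, WaplΔ/+ and double heterozygote brains. The 10 neuron markers summed to between 6823 and 7114 CPM in WT libraries, between 6490 and 6736 in Nipbl+/- libraries, between 6632 and 6907 in WaplΔ/+ libraries and between 6558 and 7278 in double heterozygotes, and 4 of 10 were called lower in Nipbl+/- brains. The 7 astrocyte markers summed to between 736 and 802 CPM in WT and between 574 and 699 in Nipbl+/- libraries, with 5 called lower, and to between 606 and 746 in double heterozygotes, with 3 called lower. The 7 oligodendrocyte lineage markers, Pdgfra among them, summed to between 265 and 284 CPM in WT, between 209 and 253 in Nipbl+/- and between 215 and 252 in double heterozygote libraries, with 4 and 5 called lower. The 6 microglia markers summed to between 61.7 and 73.3 CPM in WT and between 51.3 and 58.7 in Nipbl+/- libraries, with 3 called lower. In WaplΔ/+ brains 0 markers of these 4 lists were called, beside 2.22% of all genes. At that share few calls fall among so few markers. The astrocyte markers summed to between 630 and 813 CPM in WaplΔ/+ libraries, and 6 of 7 had a negative log2 fold change (median -0.14). The oligodendrocyte lineage markers summed to between 240 and 306 CPM there, and the microglia markers to between 61.4 and 82.4. The part of cell composition in the fall of the subunit genes was not tested.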

How the data were processed

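Poly(A) RNA of each brain was sequenced as paired-end reads. Per the labels and methods, the authors trimmed reads with cutadapt 2.4, mapped them with STAR 2.5.3a to mm10 (GRCm38.p6), counted them on genes with featureCounts of Subread 1.6.4, and deposited raw counts; strand setting, annotation version and treatment of shared reads are not given in the sources used here. 1 further Nipbl+/- library was not analysed here.

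Testing used the quasi-likelihood method of edgeR 4.0.16 with TMM scaling, run under R 4.3.3, each comparison being fitted on its own groups and the interaction on all. The 30552 genes whose normalized counts totalled 10 or more in the 21 libraries entered. DESeq2 1.42.0 was an alternative, beside other filters, scalings, a 0.05 threshold, 1 joint fit, a block for replicate number, the mt-Nd3 sets (above or below 20 counts), Wapl label order and leaving out each library. The fits were tested on simulated data. Libraries are single embryos, and the tests weigh group differences against the spread between embryos. Embryos were treated as independent, and litter was not in any fit.

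Coordinates came from RefSeq for GRCm38.p6, in which symbols matched 24076 tested genes, synonyms 262, and 6214 had no match. Levels of different genes were not compared, since no transcript lengths were used. Members and lists were chosen with earlier results of these data known, and gene span was added after values were seen. Genes named were the members, Wapl, Nipbl, Grin3b, mt-Nd3, per list and comparison with WT at most the 2 called genes with the largest rise and 2 with the largest fall, and per member the 3 genes with the highest correlation. One marker gene's result is not reported here.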

Additional observations from a re-analysis of the deposited data

Results flagged for a closer look

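Grin2d in WaplΔ/+ replicate 7 stood apart from the rest of its group, at 3746 normalized counts where the next highest of the 7 libraries had 3228. The gap was 0.579 of the range of the group, above Dixon's 95% critical value for 7 samples. It was 1 of 21 combinations of gene and group checked, and chance flags about 1 in 20.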

How the results depend on the processing

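Of 966 recomputed log2 fold changes of subunit genes, 861 kept direction and side of the threshold, 31 lost a call, 18 gained one and 56 turned sign, the last all among values that were no call. The cause of these moves was not tested. The calls of Grin2a, Grin2b and Grin3a in Nipbl+/- brains held in all 17 alternatives. P values rest on 3 to 7 embryos a group, low counts limit Grin2c, and the mt-Nd3 sets are uneven between groups.

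Counts of subunit genes called moved as follows. With all 4 groups in one fit, 0 were called in WaplΔ/+ against WT, where 7 of 30552 genes were called in all. With a threshold of 0.05, 1 was called in Nipbl+/- against WaplΔ/+, where 196 genes were called in all. DESeq2 called 2 in the interaction, where it called 793 genes in all. With the mt-Nd3 set as a term, 0 were called between double heterozygotes or Nipbl+/- and WaplΔ/+ brains, where 162 and 33 genes were called in all. Among low mt-Nd3 libraries 0 were called in these and in WaplΔ/+ against WT, where 24, 8 and 47 genes were called in all. Among high ones 0 were called in double heterozygotes against WT or WaplΔ/+, where 1 and 29 genes were called in all. Carriers with the deletion written first gave 4 in double heterozygotes against WT, where 1814 genes were called in all. They gave 0 in double heterozygotes and Nipbl+/- against WaplΔ/+, where 24 and 8 genes were called in all. Those with it written second gave 0 in double heterozygotes against WaplΔ/+, where 29 genes were called in all. Leaving out 1 library gave the following, with genes called in all in brackets. It gave 0 to 2 in Nipbl+/- against WaplΔ/+ (69 to 600) and 0 to 1 in WaplΔ/+ against WT (9 to 1534). It gave 2 to 4 in double heterozygotes against WT (454 to 2504) and 0 to 1 in double heterozygotes against WaplΔ/+ (163 to 449). In the interaction it gave 0 to 2 (0 to 945). Calls among the pathway genes are given next with genes called in all in brackets. In WaplΔ/+ against WT they numbered 14 with DESeq2 (1446), 8 with no low count filter (959) and 0 in one fit (7). With the mt-Nd3 term they numbered 2 (305), among low libraries 1 (47) and among high ones 2 (278). The deletion written first gave 18 (991), the 0.05 threshold 1 (181) and single libraries left out 1 to 10 (9 to 1534). In double heterozygotes the pathway calls numbered 0 among high libraries (1), and 19 and 7 with the deletion written first and second (1814 and 869). Without single libraries they numbered 7 to 21 (454 to 2504). In Nipbl+/- brains they numbered 15 in one fit (1658). Over all genes, calls in WaplΔ/+ against WT fell to 13 without WT replicate 1 and 9 without WT replicate 2. The log2 ratio of late to early subunits was -4.63 in WT and -4.90 in double heterozygotes when Grin2c and Grin2d were added.

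With the replicate number as a block (replicate block), 2 subunit genes were called in WaplΔ/+ against WT, where 1991 of 30552 genes were called in all. It called 1 in double heterozygotes against Nipbl+/- (59 genes in all) and 1 in Nipbl+/- against WaplΔ/+ (233 in all). Pathway genes called under the block were 16 in WaplΔ/+ and 7 in double heterozygotes against WT, the latter among 535 genes in all. The block turned Grin1 to 0.0058 and Grin2d to 0.0055 in double heterozygotes against Nipbl+/-, Grin1 to 0.021 in the interaction, and Grin2c to 0.044 in Nipbl+/- and 0.013 in double heterozygotes against WaplΔ/+. In 0 of 6 pairs of groups did every pair of same-numbered libraries correlate above 0.1, so the numbers were not taken to pair embryos.

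Other values turned sign. For Grin1 the interaction was 0.0082 with DESeq2, 0.0081 with its size factors, 0.011 with filterByExpr, 0.0042 with no filter, 0.094 with the deletion written first, 0.073 among low libraries and -0.061 to 0.11 without single libraries. Nipbl+/- against WaplΔ/+ gave 0.0086 for Grin1 with the mt-Nd3 term and 0.0099 among low libraries or with the deletion written first. For Grin2a, double heterozygotes against Nipbl+/- gave -0.0070 with the term, -0.0097 in the other two settings and -0.017 to 0.18 without single libraries, where Grin1 gave -0.081 to 0.062 and Grin2c -0.0046 to 0.16. For Grin2c, Nipbl+/- against WaplΔ/+ was 0.22 in those 3 settings, double heterozygotes against WaplΔ/+ was 0.30 among low libraries and with the deletion written first, 0.061 with the term and -0.092 to 0.0023 without single libraries, and WaplΔ/+ against WT was 0.069 with the deletion written second, 0.021 among high libraries and -0.091 to 0.0066 without single libraries. For Grin2d, WaplΔ/+ against WT was -0.028 with the deletion written first and -0.024 among low libraries, double heterozygotes against WT 0.044 and 0.053 in these, 0.0037 in one fit, 0.0019 with filterByExpr and -0.049 to 0.062 without single libraries. Double heterozygotes against WaplΔ/+ gave 0.073 for Grin2d in both, and Nipbl+/- against WaplΔ/+ -0.039 with the deletion written second and -0.071 to 0.055 without single libraries. Grin2b in Nipbl+/- against WaplΔ/+ ran from -0.15 to 0.047 without single libraries.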

Other observations

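The other marker lists of the lists checked moved in both directions. Over all genes tested, 11.2% were called in Nipbl+/- brains in either direction, and 6.96% were called lower. These shares were 2.22% and 1.45% in WaplΔ/+ brains, and 3.28% and 2.46% in double heterozygotes. Of 8 GABAergic neuron markers, 4 were called higher in Nipbl+/- brains, Dlx1, Dlx2, Dlx5 and Lhx6, and 1, Sst, lower, and Sst was also called lower in double heterozygotes. Of 8 glutamatergic neuron markers, Fezf2 and Emx1 were called higher in Nipbl+/- brains. The list did not rise as a whole there, since 4 of the 8 had a negative log2 fold change and the list median was -0.04. Of 9 progenitor markers, Sox2, Nes and Eomes were called higher and Fabp7 lower in Nipbl+/- brains. Of 8 markers of meninges and vessels, 3 collagen genes, Col1a1, Col1a2 and Col3a1, were called higher in WaplΔ/+ brains and Col3a1 in Nipbl+/- brains. Of 7 blood markers Hbb-y was called higher in Nipbl+/- brains. In that group 6 of the 7 had a negative log2 fold change, with a list median of -0.25. Of 7 pituitary markers Gh was called lower in WaplΔ/+ brains. The summed level of the pituitary list ran from 1.94 to 89.8 CPM in WT libraries, with a median of 2.22. In WaplΔ/+ libraries it ran from 2.31 to 3.74 CPM. By edgeR, 0 of 6 cerebellar granule lineage markers and 0 of 5 choroid plexus markers were called. The genes named here were chosen after their values were seen.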
